A study of Mus musculus with 8 samples.

Results

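The 10 genes described here encode enzymes that cut the extracellular matrix (Adam8, Adamts1, Adamts4, Mmp2, Mmp3, Mmp14 and Mmp19) and the tissue inhibitors that block them (Timp1, Timp2 and Timp3). They were taken by symbol from the 27998 genes of the deposited matrices, and each of the 10 matched 1 entry. Left ventricular cells of male mice on a C57BL/6 background, aged 10 to 12 weeks and with no genotype given in the labels, were collected 6 h after a sham operation or after ischemia/reperfusion (IR), in which the left anterior descending artery is tied off for 30 min and then released. The labels record the sham group as 0 h and the IR group as 6 h, with 4 samples each, the protocol names the tissue of 3 hearts, and whether the 0 h of the label stands for sham surgery is taken from the study text and not from the label itself. Each condition was deposited as 1 matrix whose barcodes name no sample, so each was treated as 1 library, and no difference between IR and sham has a replicate check.

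Matrix metalloproteinases (MMPs), the related ADAMTS enzymes and the membrane-bound ADAM enzymes are zinc-dependent proteases. MMPs cut collagens, gelatin, fibronectin and growth factor carriers, and ADAMTS1 and ADAMTS4 cut proteoglycans such as versican. TIMPs bind the catalytic site of these enzymes, TIMP3 is the one held in the matrix and blocks ADAMTS enzymes as well, and TIMP2 together with the membrane enzyme MMP14 takes part in the activation of pro-MMP2. In the injured heart this system is known for matrix breakdown in the early phase and for scar remodeling later.

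On the GRCm38 build (GENCODE vM21 annotation) the inhibitor genes lie on 3 chromosomes. Timp1 spans chrX:20870166-20874735 on the plus strand and overlaps Syn1, which is read from the other strand. Timp2 spans chr11:118301069-118355740 on the minus strand, where Cep295nl overlaps it on the same strand, so that UMIs of these 2 genes may not be fully told apart. Timp3 spans chr10:86300372-86349506 on the plus strand and overlaps Syn3 on the other strand. The protease genes are Mmp2 at chr8:92827291-92853420, Mmp3 at chr9:7445822-7455975, Mmp14 at chr14:54431612-54445364, Mmp19 at chr10:128790910-128800824, Adamts4 at chr1:171250421-171260637 (all plus strand), Adamts1 at chr16:85793827-85803113 and Adam8 at chr7:139978932-139992562 (both minus strand). Mmp19 overlaps Gm47093 and Tmem198b, and Adam8 overlaps Gm16201, both on the other strand, and Adam8 overlaps Mir7062 on its own strand. Whether the counting used the strand is not given in the sources used here.

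The promoters of the inhibitors are shown because the 3 inhibitor genes, which share a fold and a function, differed from each other in direction after IR. Each sequence runs from 250 bases before to 50 bases after the RefSeq transcript start (build GRCm38.p6, read 5′ to 3′ on the gene's own strand). Capitals mark matches on either strand to 4 motifs, namely the AP-1 motif TGANTCA, the core of the cyclic-AMP response element TGACG, the GC box GGGCGG and the TATA box TATAAA. The windows are chrX:20869916-20870215 for Timp1, chr11:118355362-118355661 for Timp2 and chr10:86300162-86300461 for Timp3.
Timp1: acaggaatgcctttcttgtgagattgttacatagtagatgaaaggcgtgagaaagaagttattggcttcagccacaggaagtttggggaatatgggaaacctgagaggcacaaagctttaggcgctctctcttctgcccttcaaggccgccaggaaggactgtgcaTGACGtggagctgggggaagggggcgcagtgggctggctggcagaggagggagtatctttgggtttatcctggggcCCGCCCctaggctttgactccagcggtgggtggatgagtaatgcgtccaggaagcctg
Timp2: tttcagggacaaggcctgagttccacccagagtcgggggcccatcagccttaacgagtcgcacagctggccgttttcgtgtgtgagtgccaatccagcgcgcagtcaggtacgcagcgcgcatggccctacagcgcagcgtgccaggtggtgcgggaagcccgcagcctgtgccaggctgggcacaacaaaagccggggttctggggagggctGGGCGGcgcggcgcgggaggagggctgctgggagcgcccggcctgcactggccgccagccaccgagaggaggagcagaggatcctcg
Timp3: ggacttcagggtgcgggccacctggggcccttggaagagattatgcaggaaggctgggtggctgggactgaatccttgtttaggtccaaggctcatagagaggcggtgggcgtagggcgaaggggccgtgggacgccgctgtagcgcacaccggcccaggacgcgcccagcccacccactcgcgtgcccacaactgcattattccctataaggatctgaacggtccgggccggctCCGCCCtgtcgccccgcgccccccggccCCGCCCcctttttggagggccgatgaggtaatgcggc
Timp1 held 1 match to TGACG and 1 GC box, Timp2 held 1 GC box and Timp3 held 2 GC boxes. Of the 7 member genes with a promoter in the RefSeq table, 6 held a GC box, 2 held TGACG (Timp1 and Adamts1), 2 held a TATA box (Adamts1 and Mmp3) and 1 held the AP-1 motif (Mmp3). Among 27025 promoter windows of 300 bases, 35.9% held the GC box, 21.0% TGACG, 14.2% the TATA box and 7.93% the AP-1 motif. A match is a run of letters and not a shown binding site.

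After a filter of at least 200 genes and at most 30% mitochondrial UMIs, 11377 of 11620 sham barcodes and 8260 of 8539 IR barcodes were kept, with 58199273 and 74388403 UMIs (a UMI, or unique molecular identifier, stands for 1 captured transcript), and 30 barcode sequences occurred in both libraries. Cells were sorted into classes by UMIs of marker genes, which placed 87.5% of sham and 76.0% of IR cells. The 6 main classes, each with its number of cells in sham and in IR, were fibroblast-like (3351 and 1309), mural-like (790 and 178, pericyte-like and smooth muscle-like cells together), endothelial-like (270 and 102), resident macrophage-like (3252 and 1007), CCR2+ monocyte/macrophage-like (268 and 880) and neutrophil-like (214 and 1679). The 10 leading genes of each of these 6 classes held at least 3 of its own markers and no marker of another class. The same markers had set the classes, so this is no independent check of their names. IR cells were deeper than sham cells in each of the 6 classes (median 13500 against 5178 UMIs per cell in fibroblast-like and 5492.5 against 1950.5 in mural-like cells), and the part of depth in the results was not tested beyond the thinned values given beside them. B cell-like cells (1091 and 632) served as the reference for free RNA in the droplets, being taken as cells that do not make the 10 proteins, and 1 marker of another class (Ccr7) was among their 10 leading genes. Their median depth was 2275 UMIs per cell in sham and 3450 in IR. The part of free RNA in a cell's UMIs may differ with depth, and comparisons with this reference were not adjusted for that.

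Levels are UMIs of a gene per 1000000 UMIs of the class (counts per 1000000, CPM), with an exact Poisson 95% interval, and ratios carry an exact conditional binomial 95% interval. These intervals cover counting error within 1 library only. A gene was called higher or lower at a ratio of at least 2 among genes with at least 50 UMIs in the class over both libraries. UMIs were counted at the 3′ end and are not divided by transcript length, so a sum or share over genes is one of UMIs.

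Timp1 had the largest ratio of the 10 genes in fibroblast-like cells. It stood at 127 CPM (122 to 132) in sham and 2377 (2355 to 2399) in IR, an 18.7-fold higher level (17.9 to 19.5). After thinning each cell to 1000 UMIs, 5.70% of sham and 43.5% of IR fibroblast-like cells held a Timp1 UMI, against 0.0925% and 1.76% of B cell-like cells (without thinning 20.0% and 84.0%, against 0.367% and 8.70%). The transcripts were unevenly spread over cells, since the tenth of IR fibroblast-like cells with the most Timp1 UMIs held 65.9% of them.

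Timp1 was also higher in the vessel wall classes. In mural-like cells it went from 4 UMIs (2.0 CPM) in sham to 242 UMIs (213 CPM) in IR, a ratio of 106 with a wide interval (41.0 to 393) set by the 4 sham UMIs. Smooth muscle-like cells reached 343 CPM and pericyte-like cells 94.3. Sham pericyte-like cells held 0 UMIs, and with 3 UMIs in place of 0 the IR level was 34.3-fold higher (lower 95% limit 27.0). Endothelial-like cells went from 15.5 to 84.0 CPM (65.0 to 107), a ratio of 5.41 (3.24 to 9.42), beside 23.4 (17.8 to 30.3) in IR B cell-like cells. After thinning, 7.07% of IR endothelial-like cells (2.89 to 14.0) held a Timp1 UMI, which overlapped the 1.76% of B cell-like cells (0.882 to 3.13).

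Timp1 levels in leukocytes have to be read against free RNA. B cell-like cells themselves went from 1.58 to 23.4 Timp1 CPM, a 14.8-fold higher level (6.41 to 42.0). CCR2+ monocyte/macrophage-like cells stood well above this in IR, at 101 CPM (95.3 to 107), and 6.06% of them (4.57 to 7.85) held a Timp1 UMI after thinning. Resident macrophage-like cells reached 31.7 CPM (28.3 to 35.4), which overlapped the interval of IR B cell-like cells (17.8 to 30.3). Neutrophil-like cells reached 37.0 CPM (32.5 to 42.0), which lay above that interval. The thinned shares of these 2 classes, 2.53% (1.65 to 3.72) and 3.14% (2.34 to 4.12), both overlapped the thinned interval of B cell-like cells (0.882 to 3.13).

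The balance of Timp1 and Timp3 UMIs was also set against the free RNA reference. In the IR library Timp1 made up 76.3% of Timp1 and Timp3 UMIs in B cell-like cells (65.2 to 85.3), 74.5% in T cell-like cells, 75.8% in resident macrophage-like cells and 76.5% in neutrophil-like cells, while in CCR2+ monocyte/macrophage-like cells it made up 94.8% (93.4 to 96.0). The T cell-like, resident macrophage-like and neutrophil-like shares lay within the interval of the free RNA reference and the CCR2+ share lay above it. The share of fibroblast-like cells, 69.8% (69.5 to 70.2), lay within it as well. A share inside the interval therefore cannot tell free RNA from a cell's own transcripts, and the source of these UMIs was not tested.

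**Figure D1:**
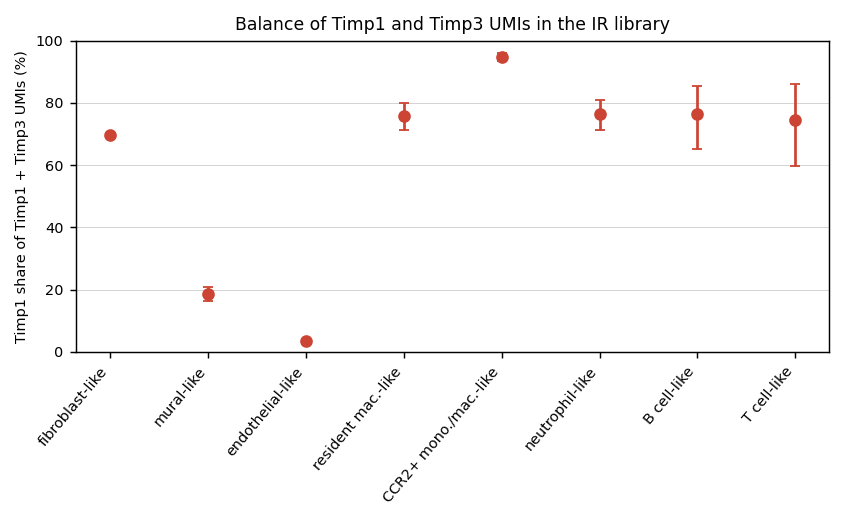
Share of Timp1 in the sum of Timp1 and Timp3 UMIs (vertical axis, percent) in 8 cell classes of the IR library (horizontal axis). Points are shares and bars are exact Clopper-Pearson 95% intervals. Resident macrophage-like, neutrophil-like, B cell-like and T cell-like cells lie between 74.5% and 76.5%. Fibroblast-like cells lie at 69.8%, CCR2+ monocyte/macrophage-like cells at 94.8% and endothelial-like cells at 3.41%.

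Timp2 was lower in IR in fibroblast-like, endothelial-like and both macrophage classes beyond counting error. In fibroblast-like cells it stood at 1029 CPM (1014 to 1044) in sham and 651 (639 to 662) in IR, a ratio of 0.632. In resident macrophage-like cells it stood at 719 (706 to 731) and 409 (397 to 422), a ratio of 0.569 (0.549 to 0.590). Neither passed the 2-fold rule, although the resident macrophage-like value did (log2 ratio -1.23) when cells with more than 2500 genes were left out.

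Leukocyte classes differed in Timp2. T cell-like cells held 40.8 CPM (31.0 to 52.6) in sham and 27.8 (20.1 to 37.6) in IR, and NK cell-like cells 61.5 (45.5 to 81.4) and 38.3 (17.5 to 72.7), above B cell-like cells in both libraries. CCR2+ monocyte/macrophage-like cells held 28.7 (21.8 to 37.0) and 13.5 (11.4 to 15.8) CPM, 2.12-fold lower in IR. These levels lay above the intervals of B cell-like cells (10.0 to 17.7 in sham and 2.80 to 8.98 in IR). The thinned shares of CCR2+ cells, 3.0% and 1.26%, overlapped those of B cell-like cells (0.925% and 0.640%) within their intervals. Over all macrophage/monocyte-like cells as 1 class, Timp2 stood at 636 CPM in sham and 194 in IR, a 3.28-fold lower level. Resident macrophage-like cells were 3252 of 3566 cells of that class in sham and 1007 of 1988 in IR. Neutrophil-like cells held 221 (181 to 267) and 182 (172 to 193) CPM, far above B cell-like cells at 13.4 and 5.25.

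Of the 6 classes, Timp3 was highest in endothelial-like cells in both libraries, at 1331 (1268 to 1395) and 2381 (2274 to 2491) CPM, a ratio of 1.79 (1.67 to 1.91). Fibroblast-like cells went from 467 to 1026 CPM, 2.20-fold higher (2.14 to 2.25), and this ratio was 1.20 when cells with more than 2500 genes were left out, a limit that keeps 145 of the 1309 IR fibroblast-like cells. Mural-like cells went from 367 to 934, 2.54-fold higher (2.31 to 2.80). Under the alternatives the mural ratio reached 4.19. Within the mural-like class, pericyte-like cells went from 194 to 1325 CPM (6.82-fold, 5.85 to 7.97) and smooth muscle-like cells from 576 to 505 (0.878, 0.756 to 1.02). The difference between these 2 ratios was not tested.

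Timp3 UMIs in leukocytes were few. Resident macrophage-like cells held 5.82 and 10.1 CPM, CCR2+ monocyte/macrophage-like cells 1.98 and 5.54 and neutrophil-like cells 2.1 and 11.4, beside 9.22 and 7.27 in B cell-like cells. These levels were near or below that of the free RNA reference, and the calls of Timp3 as higher in the latter 2 leukocyte classes rest on 4 and 1 sham UMIs.

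Added together, the 3 inhibitors stood at 1623 CPM in sham and 4054 in IR fibroblast-like cells, a ratio of 2.50 (2.46 to 2.53). Their makeup differed as well. Timp2 made up 63.4% of these UMIs in sham and 16.0% in IR, Timp3 28.8% and 25.3%, and Timp1 7.83% and 58.6%. In resident macrophage-like cells the sum went the other way, from 725 to 451, and Timp2 remained 90.7% of it in IR.

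**Figure D2:**
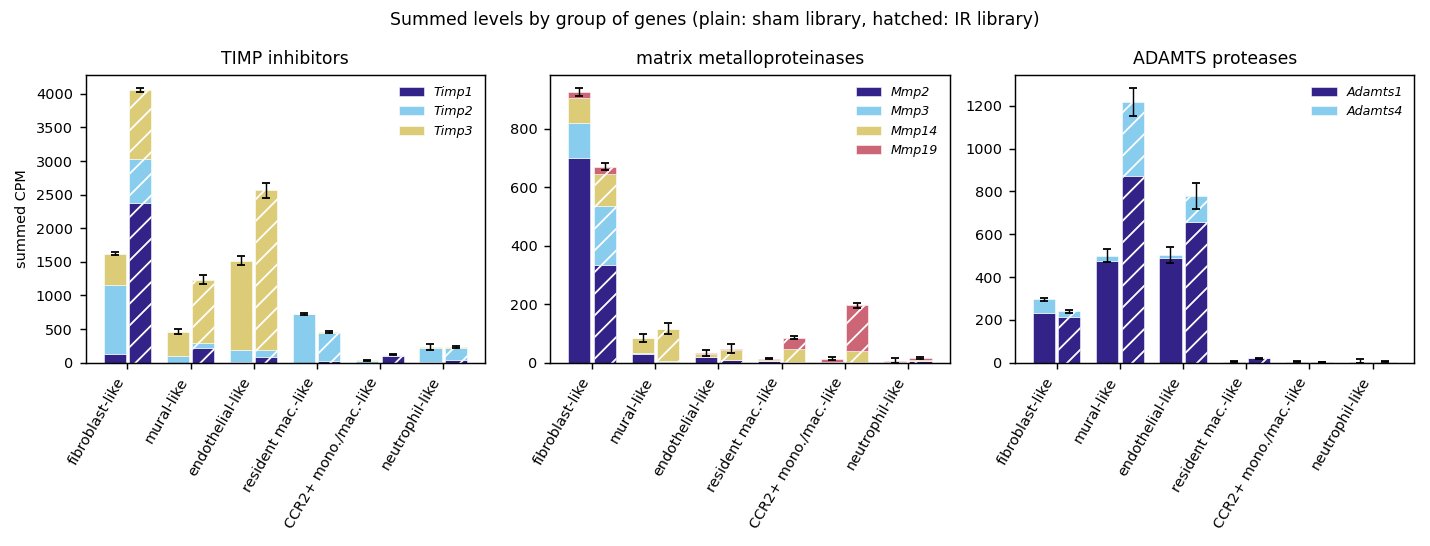
Summed CPM (vertical axes) of the inhibitors, the matrix metalloproteinases and the ADAMTS proteases in 6 cell classes (horizontal axes), with plain bars for the sham and hatched bars for the IR library, stacked by gene; error bars are exact Poisson 95% intervals of the sum. The inhibitor sum in fibroblast-like cells went from 1623 to 4054, while the metalloproteinase sum there went from 925 to 670.

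Mmp2, a gelatinase that cuts denatured collagen, had 87.1% of its sham and 82.0% of its IR UMIs in fibroblast-like cells. It stood at 701 CPM (689 to 713) in sham and 335 (327 to 344) in IR fibroblast-like cells, 2.09-fold lower. The value lay close to the 2-fold limit and passed it or not depending on the setting (log2 ratio from -1.08 to -0.89). After thinning, 47.1% of sham and 29.4% of IR fibroblast-like cells held an Mmp2 UMI, whereas without thinning the shares were 90.3% and 91.3%.

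Mural-like cells held 57 Mmp2 UMIs in sham (28.6 CPM) and 4 in IR (3.52 CPM), 8.11-fold lower with a ratio of 0.123 (0.0325 to 0.333). The IR level there was near that of free RNA, with B cell-like cells at 4.74 in sham and 2.83 in IR. The lower call in resident macrophage-like cells, from 4.76 to 1.59 CPM, was made near or below the B cell-like levels in both libraries.

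Mmp3, stromelysin-1, was held by few fibroblast-like cells. Its level was 119 (114 to 124) in sham and 199 (193 to 206) in IR, a ratio of 1.67 (1.59 to 1.76), and the tenth of cells with the most Mmp3 UMIs held 98.9% of them in sham and 97.0% in IR. The thinned shares of cells with a UMI, 5.40% (4.66 to 6.23) and 6.37% (5.10 to 7.83), overlapped, and B cell-like cells held a UMI in 0.0925% in sham and in 0 of 625 cells in IR, where 3 counts would be 0.48% (without thinning 0.275% and 0.949%). Without cells of more than 2500 genes the ratio was 3.27. In each of the other 5 classes Mmp3 stood at no more than 3.01 CPM.

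Mmp14, a membrane-bound collagenase, was shared by stroma and IR macrophages. Fibroblast-like cells held 84.9 (80.8 to 89.3) and 110 (106 to 115) CPM, a ratio of 1.30. Mural-like cells went from 51.6 to 110, 2.13-fold higher (1.63 to 2.80), a call lost without cells of more than 2500 genes, with the mean of per-cell values and on thinned counts (log2 ratios 0.85, 0.84 and 0.82). The highest class in IR was fibroblast-like or mural-like depending on the setting, their levels being 110.5 and 110.0 with overlapping intervals. Pericyte-like cells held 85.2 and 148, and smooth muscle-like cells 11 and 68.3.

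Both macrophage classes were called higher for Mmp14. Resident macrophage-like cells went from 4.99 (3.99 to 6.17) to 44.3 (40.3 to 48.6) CPM, 8.87-fold higher (7.02 to 11.3). CCR2+ monocyte/macrophage-like cells held 1 UMI in sham and 397 in IR (35.5 CPM), a ratio of 71.8 whose interval runs from 12.8 to 2844. After thinning, 2.53% and 2.74% of the IR cells of these classes held a UMI, against 0 of 625 IR B cell-like cells.

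Mmp19, a secreted metalloproteinase, had its UMIs mainly in fibroblast-like cells in sham and mainly in CCR2+ cells in IR. Fibroblast-like cells held 69.7% of its UMIs in sham and 12.7% in IR, whereas CCR2+ monocyte/macrophage-like cells held 3.26% and 46.1%. Fibroblast-like cells were 29.5% of kept sham and 15.8% of kept IR cells, and CCR2+ cells 2.36% and 10.7%. The level within fibroblast-like cells was 19.8 (17.9 to 22.0) and 25.2 (23.0 to 27.5), a ratio of 1.27, and the log2 ratio was -0.17 without cells of more than 2500 genes. In CCR2+ monocyte/macrophage-like cells it went from 8.40 (4.89 to 13.4) to 158 (151 to 166), 18.8-fold higher (11.7 to 32.4), and in resident macrophage-like cells from 2.76 to 38.2, 13.8-fold higher (10.2 to 19.1). The resident macrophage-like ratio was 4.47 without cells of more than 2500 genes, 1 cell held 85 of the 385 IR UMIs, and the tenth of IR cells with the most held 96.1%. Thinned shares were 12.7% in IR CCR2+ cells, 2.53% in IR resident macrophage-like cells and 0.32% in IR B cell-like cells.

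In fibroblast-like cells the 4 metalloproteinases together went from 925 to 670 CPM, a ratio of 0.725 (0.709 to 0.742), against the 2.50 of the inhibitor sum. Mmp2 made up 75.8% of these UMIs in sham and 50% in IR. In CCR2+ monocyte/macrophage-like cells the metalloproteinase sum was 16.6-fold higher (11.1 to 26.0) and the inhibitor sum 3.74-fold higher (2.92 to 4.88).

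**Figure D3:**
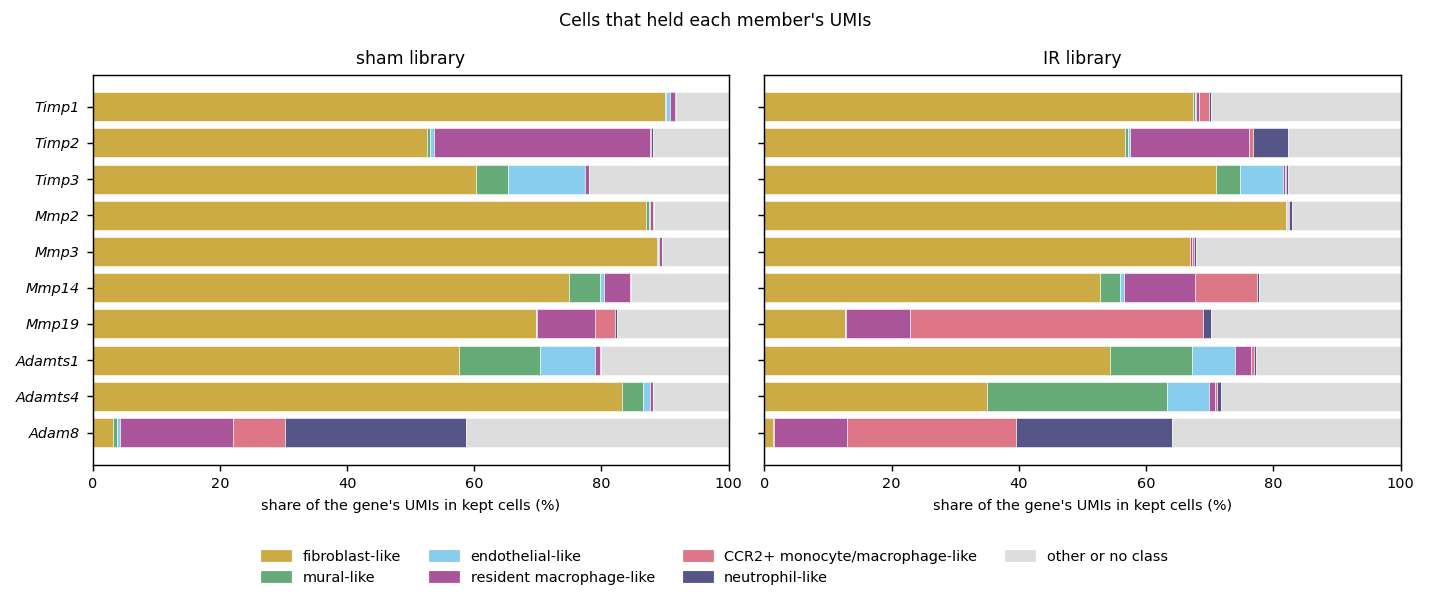
Share of each gene's UMIs in kept cells (horizontal axes, percent) that lay in each cell class, for the sham and the IR library; gray stands for other classes and cells in no class. Fibroblast-like cells held 69.7% of Mmp19 UMIs in sham and 12.7% in IR, and mural-like cells held 3.33% of Adamts4 UMIs in sham and 28.1% in IR.

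Adamts4 went in opposite directions in stroma and vessel wall. Fibroblast-like cells held 62.7 CPM (59.1 to 66.4) in sham and 25.3 (23.1 to 27.6) in IR, 2.48-fold lower. Mural-like cells held 23.0 (16.9 to 30.7) and 344 (311 to 380), 14.9-fold higher (11 to 20.7), and endothelial-like cells 10.9 (5.95 to 18.2) and 117 (94.4 to 144), 10.8-fold higher (6.10 to 20.5). Within the mural-like class both parts were higher, pericyte-like cells by 18.8-fold (12.2 to 30.2) and smooth muscle-like cells by 11.3-fold (7.28 to 18.4).

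Over all kept cells Adamts4 had 1381 UMIs in sham (23.7 CPM) and 1389 in IR (18.7 CPM). Of these UMIs, 11.7% in sham and 28.0% in IR lay in cells of no class. Mural-like cells, 2.15% of kept IR cells, held 28.1% of them in IR. After thinning, 20.0% of IR mural-like cells (14.2 to 26.9) and 11.1% of IR endothelial-like cells (5.68 to 19.0) held a UMI, against 2.35% and 0.4% in sham and 0 of 625 IR B cell-like cells. The lower fibroblast value was not called without cells of more than 2500 genes (log2 ratio -0.74).

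Adamts1 was held by the same 3 classes. Mural-like cells held 476 (446 to 507) and 872 (819 to 928) CPM, a ratio of 1.83 (1.67 to 2.0), endothelial-like cells 491 and 659, and fibroblast-like cells 234 and 215, where the log2 ratio of -0.12 was 0.08 without cells of more than 2500 genes. In pericyte-like cells it was 4.45-fold higher in IR (3.77 to 5.27), from 185 to 823, and in smooth muscle-like cells it stood at 827 and 926. Resident macrophage-like cells went from 3.99 to 19.7 CPM and passed the 2-fold rule, and their IR level lay above the 8.89 (5.57 to 13.5) of B cell-like cells, while the thinned shares in IR were 1.52% (0.853 to 2.49) and 1.44% (0.660 to 2.72).

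Adam8, a membrane protease of leukocytes, was highest in neutrophil-like cells. They held 374 (321 to 434) CPM in sham and 564 (546 to 583) in IR, a ratio of 1.51 (1.30 to 1.76). Resident macrophage-like cells went from 6.52 (5.36 to 7.85) to 171 (163 to 179), 26.2-fold higher (21.6 to 32.1). CCR2+ monocyte/macrophage-like cells went from 25.7 (19.2 to 33.7) to 358 (347 to 370), 14.0-fold higher (10.6 to 18.7).

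After thinning, an Adam8 UMI was found in 0.533% of sham and 12.1% of IR resident macrophage-like cells, in 2.25% and 28.9% of CCR2+ cells, and in 27.2% and 40.7% of neutrophil-like cells. B cell-like cells held one in 0 of 1081 and in 1.44%. Fibroblast-like cells were called higher for Adam8, but at 1.09 and 10.5 CPM they lay below B cell-like cells at 2.11 and 15.4. Without thinning, 0.537% and 9.78% of fibroblast-like cells held an Adam8 UMI, against 0.458% and 5.06% of B cell-like cells. The 2 classes differ in depth, and whether these UMIs are free RNA was not tested.

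**Figure D4:**
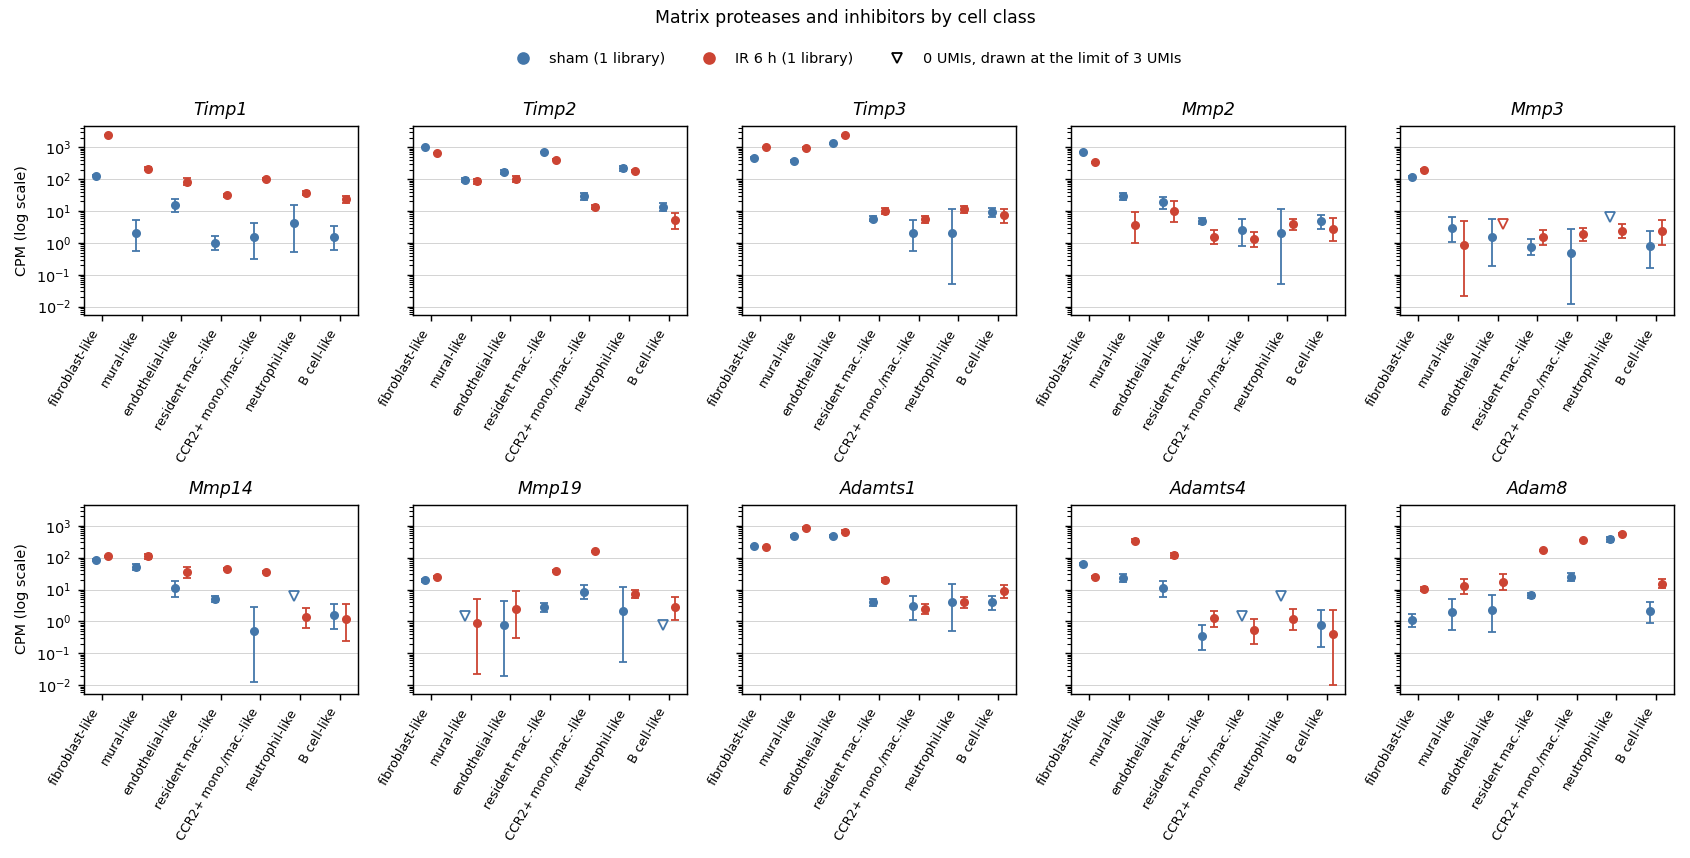
CPM (vertical axes, log scale) of the 10 genes in 6 cell classes and in B cell-like cells as the free RNA reference (horizontal axes), with blue points for the sham and red points for the IR library. Bars are exact Poisson 95% intervals and open triangles mark 0 UMIs, drawn at the level of 3 UMIs; Timp1 in fibroblast-like cells goes from 127 to 2377 and Adam8 in resident macrophage-like cells from 6.52 to 171.

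The calls of each class are set beside the shares of all its tested genes called. In fibroblast-like cells 3 of 10 were higher (Adam8, Timp1 and Timp3) and 2 lower, where 9.64% and 11.8% of all tested genes were. The Adam8 level there lay below that of B cell-like cells in CPM in both libraries, and the source of its UMIs was not tested. In mural-like cells 7 of the 10 passed the count filter, 4 of these were higher and 1 lower (Mmp2), beside 5.54% and 7.41% of all genes. In endothelial-like cells 5 passed, 2 were higher and 0 lower, beside 6.68% and 7.03%.

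In resident macrophage-like cells 8 passed, 5 were higher (Adam8, Adamts1, Mmp14, Mmp19 and Timp1) and 1 lower (Mmp2), beside 9.53% and 7.58% of all genes. The Mmp2 call there was made near or below the CPM of B cell-like cells, and the thinned IR shares of Adamts1 and Timp1 overlapped those of B cell-like cells. In CCR2+ monocyte/macrophage-like cells 6 passed, 5 were higher and 1 lower (Timp2), beside 11.2% and 15.8%. In neutrophil-like cells 5 passed, 3 were higher (Mmp19, Timp1 and Timp3, from 1 or 2 sham UMIs each) and 0 lower, beside 13.8% and 13.1%. Genes under 50 UMIs in a class were not tested there, and a gene can pass through the library where it is high, so these counts describe the genes that passed and not all 10. The median log2 ratio of the members tested was 0.36 in fibroblast-like, 1.09 in mural-like, 0.84 in endothelial-like, 2.73 in resident macrophage-like, 4.02 in CCR2+ monocyte/macrophage-like and 1.82 in neutrophil-like cells, and that of all genes was -0.02, -0.05, 0.01, 0.12, -0.17 and -0.13 in the same order. Scaling by the median ratio turned the shares of all genes called higher and lower to 6.94% and 10.1% in resident macrophage-like, 15.5% and 10.2% in CCR2+ monocyte/macrophage-like and 22.1% and 5.48% in neutrophil-like cells.

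**Figure D5:**
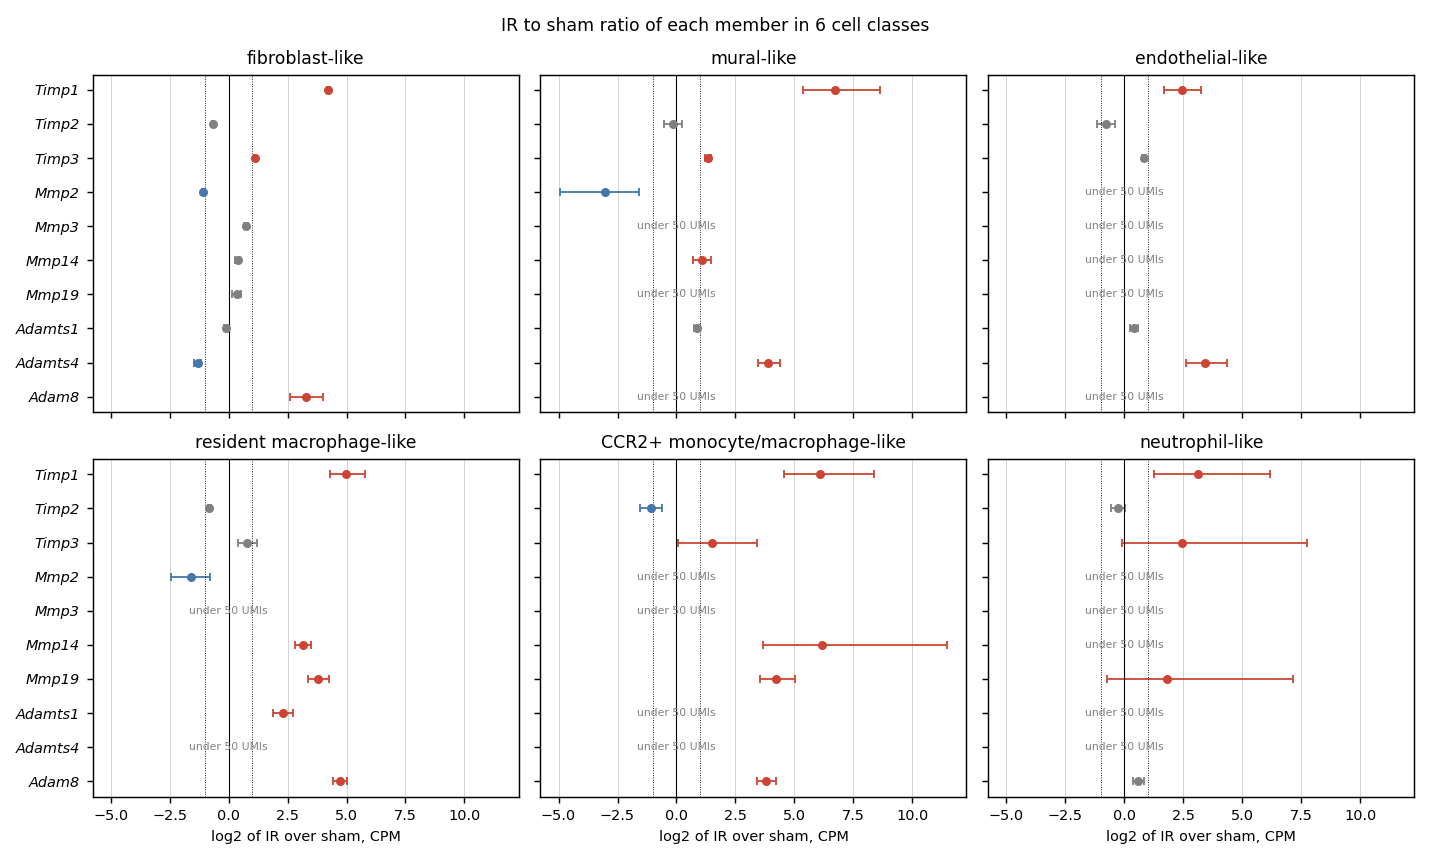
Log2 of the IR to sham ratio in CPM (horizontal axes) for each gene (vertical axes) in 6 cell classes, with exact 95% intervals. Red and blue points are genes at least 2-fold higher and lower in IR, gray points lie between the dotted lines at 2-fold, and genes under 50 UMIs are not drawn; Adamts4 lies to the left in fibroblast-like and to the right in mural-like and endothelial-like cells.

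Of 66 other genes of matrix proteolysis, 43 passed the count filter in fibroblast-like cells, where 7 were higher and 6 lower (median log2 ratio -0.09). Adam12, a membrane protease of activated mesenchymal cells, was 40.6-fold higher (24.5 to 73.0), from 0.818 to 33.2 CPM, and Adam33 was 33.1-fold lower, from 63 UMIs to 2. Plaur, the receptor for the plasminogen activator urokinase, was 13.4-fold higher (12.0 to 15.1), from 17.3 to 232. B cell-like cells held Plaur at 173 and 231, so they are no free RNA reference for this gene. Mmp8, neutrophil collagenase, was 11.8-fold higher, but its 5.13 CPM in IR lay below the 6.47 of B cell-like cells.

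In mural-like cells 22 of the 66 genes passed, 7 higher and 5 lower. Plaur was 8.08-fold higher there, at 60.7 CPM in IR, Adamts9 4.73-fold, Adamts2, which trims procollagen, 4.19-fold, and the membrane-type Mmp17 4.31-fold lower. In endothelial-like cells 22 passed, 6 higher and 4 lower. Plaur was 7.16-fold higher (5.45 to 9.53), while Mmp15 was 5.0-fold lower. Hapln1, a link protein of proteoglycan aggregates, had 66 UMIs in sham and 0 in IR, 13.4-fold lower with 3 UMIs in place of 0.

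In resident macrophage-like cells 26 of the 66 passed, 9 higher and 3 lower. Mmp12, macrophage elastase, was 4.84-fold higher (4.29 to 5.47), from 21.4 to 104 CPM, beside 0.791 and 0.808 in B cell-like cells, and Plaur was 5.90-fold higher. Mmp8 (19.4-fold) and Vcan (12.4-fold), the proteoglycan versican, were at 6.84 and 14.6 in IR, near the 6.47 and 10.1 of B cell-like cells. In CCR2+ monocyte/macrophage-like cells 18 passed, 6 higher and 2 lower, with Mmp8 10.8-fold higher (from 49.9 to 538 CPM), cathepsin L (Ctsl) 9.69-fold and Plau, urokinase, 17.0-fold (2.98 to 679, from 1 sham UMI).

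In neutrophil-like cells 18 passed, 5 higher and 4 lower. Cathepsin S (Ctss) was 7.06-fold lower, from 400 to 56.6 CPM. B cell-like cells held Ctss at 572 and 328, above both values, so they do not serve as a free RNA reference for this gene. Mmp25 was at 1 UMI in sham and 62 in IR (4.47-fold, 0.774 to 179). The shares of all genes called higher in the same classes, given above, were 9.64%, 5.54%, 6.68%, 9.53%, 11.2% and 13.8%. Of the 5 plasminogen system genes, 2 of 5 tested were called higher in fibroblast-like cells, 2 of 4 in mural-like, 2 of 4 in endothelial-like, 3 of 4 in resident macrophage-like, 2 of 3 in CCR2+ monocyte/macrophage-like and 2 of 3 in neutrophil-like cells, and 0 were called lower, with median log2 ratios from 0.30 in fibroblast-like to 3.27 in CCR2+ monocyte/macrophage-like cells.

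The genes with the most similar profile were listed for each member over 22 profiles (11 classes in both libraries, Pearson r of log2 of CPM plus 10, among 10007 genes). These profiles share libraries and depth, and r is given as a description. Mmp2 was closest to Ms4a4d (r = 0.981), Pcsk6 and Srpx2, and Mmp3 to Tenm3 (r = 0.987), Cilp and Bmper. Timp3 was closest to Tacc2 (r = 0.981), Wwtr1 and Akap2, and Adamts1 to Pls3 (r = 0.985), Yap1 and Ehd2. Adamts4 followed Osmr (r = 0.931), the receptor for oncostatin M, with C1qtnf1 and Zfp532 next. Mmp14 was closest to Extl2 (r = 0.938), Slc12a4 and Qsox2, and Adam8 to Bst1 (r = 0.936), Glrx and Csf2rb. The matches of Timp1 (Mt2, r = 0.869, Serpina3n and Slc7a2), Mmp19 (Tiam1, r = 0.832, Surf4 and Gpnmb) and Timp2 (Nradd, r = 0.812, Pmp22 and Ang) were looser.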

How the data were processed

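Single-cell RNA sequencing of left ventricular cells (10x Chromium 3′ v2 chemistry, NovaSeq6000) was analyzed. The deposited values are raw UMI counts for each gene in each barcode. The authors used the mm10 build and Cell Ranger (version 3.1.0 in the matrix headers, another version in the study's own summary), with 58653308 UMIs in the sham and 75033226 in the IR matrix. Cells needed at least 200 genes and at most 30% mitochondrial UMIs. The upper limit of 2500 genes that the methods state leaves 9777 sham and 4880 IR cells, fewer than the study analyzed, and was tried as an alternative only.

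Marker UMIs per cell were divided by the mean of the 100 highest cells of that class. A class needed 3 distinct markers, a relative level of at least 0.1 and a next class at no more than 25% of it. Macrophage/monocyte-like cells were resident macrophage-like at 80% or more resident markers among split-marker UMIs and CCR2+ at 20% or less. Of 104 marker genes, 101 are in the matrices. No doublet caller was run. Cells whose next class stood above 25% of the first were left out, except for pericyte-like with smooth muscle-like markers. Cells with fewer markers of a second class remain, so doublets may be among them. The members, lists and markers were chosen with earlier results of these data known, and the gate thresholds were set after cell numbers and member values had been seen.

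UMIs were summed per class and library. In ratios, 0 UMIs were replaced by 3. With 1 library per condition there was no test and no p value. Shares of cells were also taken after thinning to 1000 UMIs per cell. Intervals are exact at 95%. The ratio code was tested on simulated data. Named were all 10 members, of the 66 pathway genes up to 4 per class with at least 50 UMIs and a ratio of at least 4, and the 3 genes of highest profile correlation per member. Some genes that this rule names are not reported here. The software was Python 3.11.15, scipy 1.17.1, numpy 2.4.6, matplotlib 3.10.9 and pandas 2.3.3.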

Additional observations from a re-analysis of the deposited data

Results flagged for a closer look

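Adamts4 passed the 2-fold rule in opposite directions in different classes. The log2 ratio of IR to sham was 3.90 in mural-like and 3.43 in endothelial-like cells and -1.31 in fibroblast-like cells. The difference between the classes was not tested, since each condition is 1 library.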

How the results depend on the processing

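No paired analysis was possible because each condition was deposited as 1 matrix whose barcodes name no sample. No library could be left out either. The 10 alternatives were run. Numbers of members called moved as follows. Without cells of more than 2500 genes, the higher calls were 3 in CCR2+ monocyte/macrophage-like, 0 in endothelial-like and 2 in mural-like cells, and the lower calls 0 in CCR2+ and 0 in fibroblast-like cells. With cells thinned to 1000 UMIs, they were 3 higher in CCR2+ and 1 each in endothelial-like, neutrophil-like and resident macrophage-like cells, and lower 1 in fibroblast-like and 0 in CCR2+, mural-like and resident macrophage-like cells. With genes of at least 1 UMI, 4 were higher in endothelial-like cells, and 2 lower in CCR2+, 2 in mural-like and 3 in neutrophil-like cells. With at least 200 UMIs, 0 were higher in endothelial-like and 1 in neutrophil-like cells, and 0 lower in mural-like and resident macrophage-like cells. At most 10% mitochondrial UMIs gave 1 higher in endothelial-like cells, and 1 lower there and 2 in mural-like cells. The mean of per-cell values gave 0 lower in CCR2+ and 1 in fibroblast-like cells, scaling by the median ratio 0 lower in CCR2+, and a looser gate 2 lower in resident macrophage-like cells. On thinned counts Timp3 in CCR2+ cells was reversed (log2 ratio -0.13, from 2 sham and 6 IR UMIs). Mmp19 in neutrophil-like cells had 0 sham and 10 IR UMIs after thinning, so that its log2 ratio of -1.21 is set by 3 UMIs put in place of 0 and is no reversal. The thinned log2 ratios of Mmp14 (1.35) and Timp1 (3.01) in CCR2+ and of Timp1 in mural-like cells (5.13) are set by 3 UMIs in place of 0 in the same way. The cause was not tested, except that the count filters and thinning leave fewer UMIs. In neutrophil-like cells, scaling by the median ratio moved the median log2 ratio of all genes from -0.13 to 0.25 and that of Timp2 from -0.28 to 0.10. Depth limits the ratios of Timp1 in mural-like, of Timp1, Timp3 and Mmp14 in CCR2+ and of Timp1, Timp3 and Mmp19 in neutrophil-like cells, which rest on 1 to 4 sham UMIs.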

Other observations

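Small classes held further values. In platelet-like cells Timp1 had 27 UMIs among 17479 in sham (8 cells) and 0 among 15252 in IR (13 cells), and all 27 lay in 1 cell. Schwann cell-like cells held Timp3 at 1377 CPM in sham (99 UMIs, 32 cells) and 653 in IR (19 UMIs, 4 cells), and Timp2 at 431 and 344. In cardiomyocyte-like cells each of the 10 genes had at most 9 UMIs in either library.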
